A study of Mus musculus with 4 samples.

Results

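The genes of regulated exocytosis were examined in islets, the clusters of endocrine cells in the pancreas, of wild-type (WT) mice and from littermates that carry a GPR41 transgene (41 Tg in the labels, Tg here). The 48 genes encode synaptotagmins and another calcium sensor, SNARE proteins, priming and SNARE control factors, and the Rab3 and Rab27 proteins with their effectors. Each was found by its symbol among the probesets that the platform annotation pairs with a single gene, and the brightest probeset by the mean of the 4 arrays stood for a gene that had several. All 48 of 48 were measured, among 22180 genes in all. Both groups were C57BL/6 mice aged 5 to 6 months, with 2 arrays each, and islets were kept in RPMI medium before RNA was purified. GPR41 senses short-chain fatty acids and is encoded by Ffar3. The sources used here do not give the promoter of the transgene, the cells that carry it or the number of mice behind each array, so p-values measure only the spread between these arrays.

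Regulated exocytosis releases insulin and the other islet hormones when calcium enters the cell. Rab27 and Rab3 with their effectors bring granules to the plasma membrane, priming factors assemble the SNARE proteins of granule and membrane into a tight complex, and synaptotagmins and related C2 domain proteins couple fusion to calcium. In beta cells the core SNAREs are Snap25, Stx1a and Vamp2, and Syt7 is a calcium sensor known for its part in insulin release.

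Values are deposited log2 intensities, and a difference is Tg minus WT on that scale. A gene was taken as changed at an adjusted p under 0.05, from limma with Benjamini-Hochberg adjustment over all 22180 genes. Probesets differ in their response, so levels are compared between arrays and never between genes. The transgene check held, since Ffar3 stood at 7.09 and 6.47 in WT and at 11.02 and 10.98 in Tg (difference 4.22, SE 0.21, adjusted p = 0.0020). Array medians over all genes lay between 6.52 and 6.54, and first quartiles between 4.92 and 4.97. The 9 beta cell markers averaged 11.33 and 11.09 in WT and 11.04 and 11.13 in Tg, and 0 of 9 passed the test. Of the 9, 3 were higher and 6 lower in Tg. Groups did not overlap for Ucn3 (-0.60, SE 0.14), Slc30a8 (-0.33, SE 0.13) and Mafa (-0.14, SE 0.12). All 10 measured leukocyte markers were higher in Tg, 1 of them past the test, with list means of 6.90 and 6.76 in WT and of 7.997 and 7.65 in Tg. Endothelial markers were higher in 8 of 8 cases and 0 passed, with means of 8.41 and 8.22 against 8.94 and 8.62. Mesenchymal markers were also higher in 8 of 8 cases and 0 passed, with means of 6.32 and 6.48 in WT against 6.85 and 6.74 in Tg, and Dcn, a collagen-binding proteoglycan, differed most (1.79). The 9 acinar markers, of the enzyme-secreting cells, were lowest on WT replicate 1 (10.24) and highest on WT replicate 2 (11.07), with Tg arrays at 10.91 and 10.58. In these mixed cells, fewer cells of a type and less RNA per cell cannot be told apart. The part of other cell types in the results below was not tested, and marker values are given there only as description.

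Of the 48 exocytosis genes, the synaptotagmin gene Syt10 rose 11.2-fold in Tg islets and the Rab27 effector gene Mlph fell 2.51-fold, while the other 46 did not pass the test. Across all genes 0.897% passed in either direction, 0.672% higher and 0.225% lower. The core SNARE genes lay close to 0, and several of the synaptotagmin and effector genes lay lower in Tg without passing. The median difference of the 48 was -0.03, beside -0.02 over all genes. Of the 48, 38 lay above the median gene on all arrays, with a median difference of -0.037, 34.2% higher in Tg and 42.1% without overlap. Of all genes, 10468 lay above it on all arrays, with a median of -0.041, 39.5% higher and 46.9% without overlap. At an unadjusted p under 0.05 there were 11 members (22.9%), 3 higher and 8 lower, against 11.8% of all genes, 6.13% higher and 5.72% lower. With a limit of 1.5-fold added, Syt10 and Mlph were again the only members, against 3.48% of all genes (2.35% higher and 1.13% lower). Groups did not overlap in 20 of the 48 (41.7%), against 42.3% of all genes, so that count lay at the background. In 7 of them Tg was higher and in 13 lower, against 18.6% and 23.7% of all genes. The plot of differences with their confidence intervals shows how far Syt10 and Mlph stood from the other members.

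**Figure D1:**
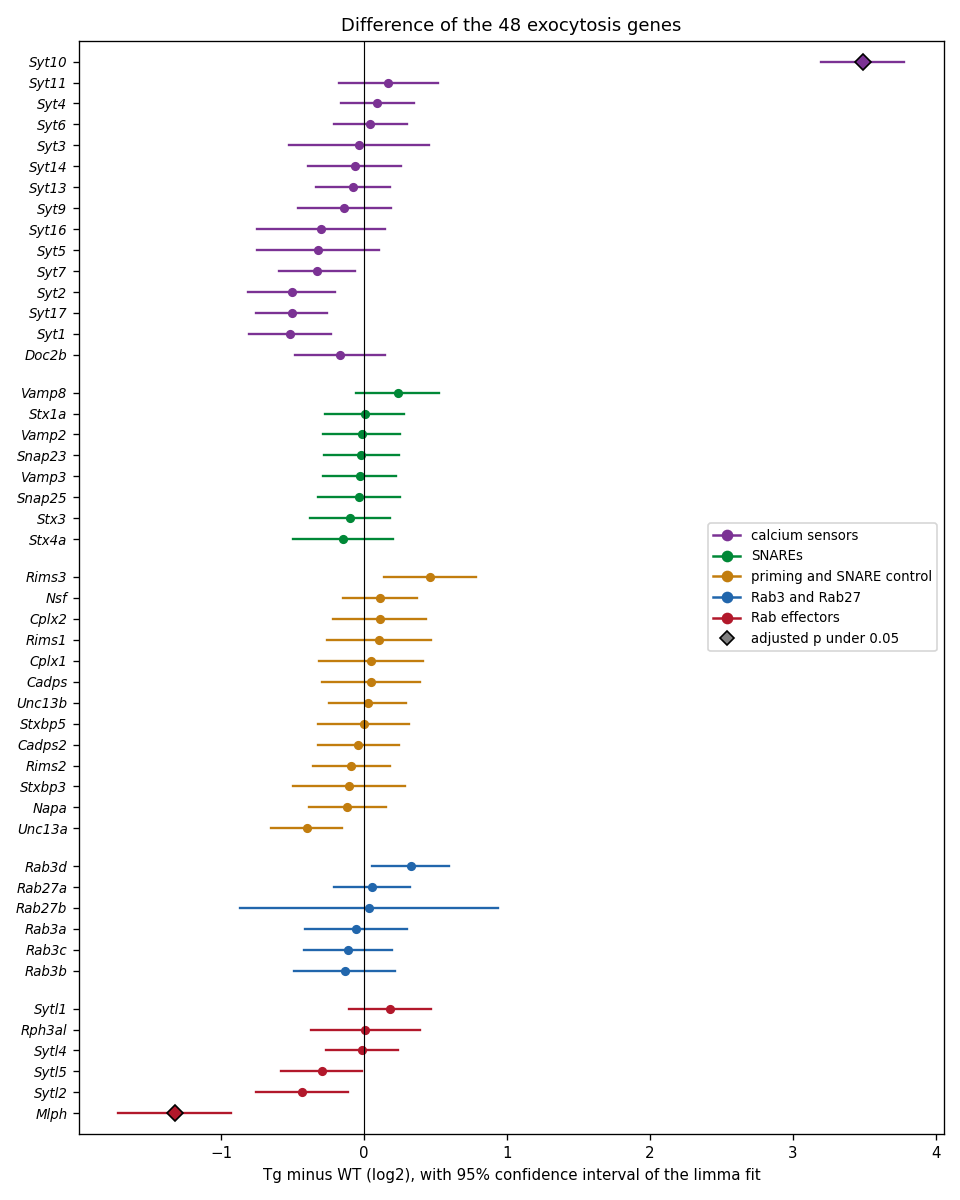
Difference between Tg and WT islets (log2, horizontal axis) for the 48 exocytosis genes, grouped by role, with points for the estimate, lines for its 95% confidence interval and diamonds for an adjusted p under 0.05. Syt10 at 3.49 and Mlph at -1.33 are the 2 diamonds, and the other 46 genes lie between -0.52 and 0.46.

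Syt10 encodes a calcium-binding synaptotagmin that is known from olfactory bulb neurons, where it serves the calcium-dependent release of insulin-like growth factor 1 from vesicles. Its value was 5.42 and 5.62 in WT and 9.05 and 8.97 in Tg. Both WT arrays lay below the median gene and above the first quartile, and both Tg arrays lay far above the median. The difference was 3.49 (SE 0.12, 95% confidence interval 3.20 to 3.78, adjusted p = 0.00094), which is many times the gap of 0.20 within WT and of 0.08 within Tg. By p-value Syt10 ranked 4 among the 22180 genes. Leaving out any 1 array gave 3.39 to 3.59, all past the threshold. Both WT arrays were dim, and on arrays such levels can compress a fold.

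The promoter of Syt10 is shown because this gene carried the largest difference of the 48. The sequence is the 250 bases before the RefSeq start, chr15:89841861-89842110 of GRCm38.p6 on the minus strand, read 5′ to 3′, with capitals for TGACG, the first part of the cyclic AMP response element.
Syt10: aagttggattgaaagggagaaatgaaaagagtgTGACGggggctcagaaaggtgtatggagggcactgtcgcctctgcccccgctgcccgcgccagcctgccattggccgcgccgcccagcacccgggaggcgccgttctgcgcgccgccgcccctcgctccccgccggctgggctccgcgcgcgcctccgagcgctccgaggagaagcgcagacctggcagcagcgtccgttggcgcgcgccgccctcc
The match begins 217 bases before the start. It was searched on both strands after the sequence had been read, and 17.8% of all 32851 promoters of this length hold it. By gene, 19.8% hold it in at least 1 promoter, against 11 of the 36 members with a promoter (30.6%). Syt10 is among those 11, and the contrast was not tested. G and C make up 72.0% of the stretch, with 32 CpG dinucleotides, against medians of 52.4% and 6 over all promoters. The whole response element (TGACGTCA), the STAT motif (TTCNNNGAA) and the left part of the REST element (TTCAGCACC), searched on both strands, had no match in this window.

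The plot of calcium sensor genes by array shows Syt10 as the single gene of its family whose groups lay more than 1 log2 unit apart. Among the other 13 synaptotagmin genes the differences ran from -0.52 for Syt1 to 0.17 for Syt11, with a median of -0.14, and 0 passed the test. Of these 13, 10 were lower in Tg, and 4 of them had an unadjusted p under 0.05, with 0 in the other direction. Of all genes 54.3% were lower in Tg, and 5.72% were lower at that p.

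**Figure D2:**
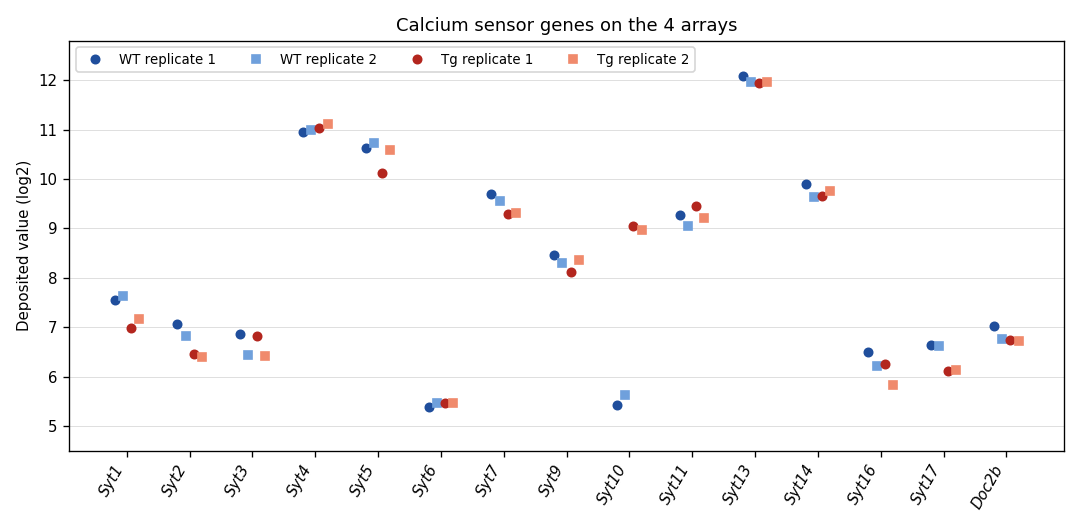
Deposited log2 values (vertical axis) of the 14 synaptotagmin genes and Doc2b on the 4 arrays, blue for WT and red for Tg, circles for replicate 1 and squares for replicate 2. Syt10 moves from 5.42 and 5.62 in WT to 9.05 and 8.97 in Tg, while heights are not comparable between genes.

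Syt3 and Syt6 are close relatives of Syt10. Syt3 stood at 6.85 and 6.44 in WT and at 6.82 and 6.41 in Tg, so the arrays of 1 group differed by more than the groups did (difference -0.03, SE 0.20). Syt6 lay below the median of every array, at 5.38 and 5.47 in WT and 5.47 and 5.46 in Tg (0.04, SE 0.10).

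Syt1 and Syt2 encode the fast calcium sensors of synaptic vesicles. Syt1 had values of 7.56 and 7.64 in WT and 6.99 and 7.17 in Tg. Both Tg arrays lay below both WT arrays, by 0.52 on average (SE 0.12, adjusted p = 0.161), which did not pass. Syt2 had 7.06 and 6.82 in WT and 6.46 and 6.41 in Tg (-0.51, SE 0.12, adjusted p = 0.192). Syt17, also known as the B/K protein, had 6.65 and 6.62 in WT and 6.11 and 6.14 in Tg (-0.51, SE 0.10, adjusted p = 0.119). For Syt1, Syt2 and Syt17 alike the arrays did not overlap between the groups, and no difference reached 1.5-fold.

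Syt7 and Syt9 are the synaptotagmins most often tied to calcium-triggered insulin release. Syt7 stood at 9.69 and 9.56 in WT and at 9.29 and 9.31 in Tg. The groups did not overlap, and the difference of -0.33 (SE 0.11, unadjusted p = 0.024) had an adjusted p of 0.326. Syt9 had 8.45 and 8.30 in WT and 8.11 and 8.36 in Tg, with groups that overlapped (-0.14, SE 0.13, adjusted p = 0.770). The 95% interval of the Syt9 difference ran from -0.46 to 0.19.

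Syt5 was lower on Tg replicate 1 (10.12) than on Tg replicate 2 (10.59), with WT at 10.63 and 10.73, and its difference of -0.32 (SE 0.17) was -0.09 without Tg replicate 1. Syt4, an atypical synaptotagmin that is known to rise as beta cells mature and to lower the calcium sensitivity of insulin release, had 10.96 and 10.99 in WT and 11.03 and 11.11 in Tg (0.09, SE 0.10). The other probesets of Syt4 were dim, with differences of 0.33 (adjusted p = 0.376 in a fit of all probesets) and 0.04. Syt13, a synaptotagmin without calcium binding that is known from the forming islet, had 12.08 and 11.97 in WT and 11.93 and 11.97 in Tg (-0.08, SE 0.11). Values of Syt13 lie near the top of the array range, whose highest value was 13.67 to 13.89, where differences can be compressed. Syt11 (0.17), Syt14 (-0.07) and Syt16 (-0.30) had groups that overlapped. The soluble C2 domain sensor gene Doc2b, whose product is known to bind Munc13 and SNAREs in beta cells, had 7.03 and 6.76 in WT and 6.74 and 6.72 in Tg (-0.17, SE 0.13, adjusted p = 0.693).

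Genes of the SNARE proteins, which form the fusion complex itself, differed little. Of the 8, 2 were higher and 6 lower in Tg, and the median difference was -0.03. At an unadjusted p under 0.05 there were 0 of them, against 11.8% of all genes. Groups did not overlap in 2 of the 8 (25%), against 42.3% of all genes. Snap25, of the plasma membrane, stood at 12.27 and 12.08 in WT and at 12.12 and 12.16 in Tg (-0.03, 95% confidence interval -0.32 to 0.25, adjusted p = 0.957). Its partner Stx1a had 7.29 and 7.20 in WT and 7.18 and 7.32 in Tg (0.0046, interval -0.27 to 0.28, adjusted p = 0.996). Vamp2, of the granule membrane, had 10.22 and 10.09 in WT and 10.13 and 10.14 in Tg (-0.02, interval -0.28 to 0.25, adjusted p = 0.979). For these core genes the Tg arrays lay within or around the WT values, and the intervals lie inside 1.5-fold (0.58) in either direction but leave room for smaller changes. For Snap25, whose values lie near the top of the array range as those of Syt13 do, a difference can be compressed, so its interval bounds the measured signal only.

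The SNAREs with a wider tissue range gave a like picture. Snap23 (-0.02), Vamp3 (-0.03), Stx3 (-0.10) and Stx4a (-0.15) were lower in Tg without passing, and over the 7 SNARE genes other than Vamp8 the intervals lay between -0.49 and 0.28. Vamp8, the granule SNARE of acinar cells and many leukocytes and also present in beta cells, had 9.98 and 10.04 in WT and 10.14 and 10.35 in Tg. It was the highest of the 8 differences (0.23, SE 0.12, adjusted p = 0.520), and both Tg arrays lay above both WT arrays, as in 18.6% of all genes. List means of the leukocyte, endothelial and mesenchymal markers were also higher on both Tg arrays. Within Tg those means were higher on replicate 1 (7.997 against 7.65 for leukocytes), whereas Vamp8 was higher on replicate 2. The part of these cells in the Vamp8 difference was not tested.

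Priming and SNARE control genes split evenly, with 7 of 13 higher and 6 lower and a median difference of 0.03. None passed the test, and 2 (15.4%) had an unadjusted p under 0.05, against 11.8% of all genes. Unc13a encodes Munc13-1, which opens syntaxin and primes granules for release. Its values were 9.49 and 9.52 in WT and 9.08 and 9.12 in Tg, with tight replicates and no overlap (-0.40, SE 0.10, adjusted p = 0.206). Rims3, which encodes a short RIM protein made of little more than its C2B domain, had 8.69 and 8.40 in WT and 9.003 and 9.01 in Tg (0.46, SE 0.13, adjusted p = 0.260). Thus the largest differences of this class ran in opposite directions, and both fell short of 1.5-fold.

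The remaining priming genes lay within 0.12 of 0. Unc13b, which encodes Munc13-2, had a difference of 0.03, and the longer RIM genes Rims1 (0.10) and Rims2 (-0.09) had groups that overlapped. Cadps, whose product CAPS1 primes dense-core granules, had 10.69 and 10.36 in WT and 10.60 and 10.54 in Tg (0.05, SE 0.14), and its relative Cadps2 was at -0.04. Complexins clamp and support the SNARE complex, and their genes Cplx1 (0.05) and Cplx2 (0.11) overlapped between the groups. Stxbp5 encodes tomosyn, an inhibitor of SNARE assembly, and had 9.89 and 9.76 in WT and 9.94 and 9.70 in Tg (-0.0036, SE 0.13). Stxbp3, the Munc18c gene, was at -0.11. Nsf (0.11) and Napa (-0.12), which take spent SNARE complexes apart, had groups that did not overlap but differences about the size of their SE (0.11 for each).

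Among the small GTPases, 0 of 6 passed, against 0.897% of all genes. Rab27a, which docks insulin granules, had 11.29 and 11.19 in WT and 11.26 and 11.34 in Tg (0.05, SE 0.11, adjusted p = 0.917). Rab3a, of granules and synaptic vesicles, had 9.61 and 9.26 in WT and 9.33 and 9.43 in Tg (-0.06, SE 0.15), and Rab3b was at -0.14. Rab3d is the Rab3 of acinar zymogen granules, and it had 10.08 and 9.94 in WT and 10.34 and 10.33 in Tg (0.33, SE 0.11, unadjusted p = 0.026, adjusted p = 0.337). Its lowest array, WT replicate 2, had the highest acinar markers, while within Tg both Rab3d and the acinar markers were higher on replicate 1. The part of acinar cells in the Rab3d difference was not tested. A dimmer second probeset of Rab3d was at -0.10, in the opposite direction. Rab27b varied most within a group, from 5.35 on WT replicate 1 to 6.53 on WT replicate 2, with Tg at 5.87 and 6.07 (0.03, SE 0.37). Its lowest and highest arrays were also those of the acinar markers and of the duct cell markers. Within Tg, Rab27b was higher on replicate 2, whereas the acinar means (10.91 and 10.58) and the duct means (8.08 and 7.85) were higher on replicate 1. The part of these cells in the Rab27b values was not tested.

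The 2 probesets of Rab3c disagreed. The brighter one, which stood for the gene, had 7.62 and 7.85 in WT and 7.57 and 7.68 in Tg (-0.11, SE 0.13). The dimmer one had 6.27 and 6.11 in WT and 7.21 and 7.46 in Tg, a difference of 1.15 (SE 0.13, adjusted p = 0.033 in a fit of all 27037 probesets). Both Tg arrays of the dimmer probeset lay above both WT arrays, and averaging the probesets gave 0.52, so the direction of Rab3c depends on the probeset. The annotation does not say which transcripts each one reads.

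Mlph encodes melanophilin, a Rab27a effector that binds myosin Va, is known for moving melanosomes in pigment cells, and has been studied on insulin granules. It stood at 8.30 and 7.90 in WT and at 6.84 and 6.71 in Tg. Each Tg array lay at least 1 log2 unit below each WT array, and all 4 lay above the median gene. The difference was -1.33 (SE 0.16, 95% confidence interval -1.72 to -0.93, adjusted p = 0.034), against a gap of 0.40 within WT and of 0.14 within Tg. With an array left out, the size stayed between -1.52 and -1.13, but the adjusted p was 0.059 without WT replicate 1, 0.175 without Tg replicate 1 and 0.157 without Tg replicate 2. It held without WT replicate 2, at an adjusted p of 0.035. Markers of alpha, delta and PP cells were lower in Tg for 5 of 7 genes with 0 past the test (list means 11.62 and 11.41 in WT, 11.23 and 11.22 in Tg). Groups did not overlap for Irx2 (-0.86, SE 0.20), Ttr (-0.45, SE 0.17), Sst (-0.32, SE 0.14) and Gcg (-0.15, SE 0.10). They overlapped for Hhex (-0.32), Rbp4 (0.04) and Ppy (0.06). Of 5 duct markers, from epithelial cells, Cftr was higher (2.30) and passed. The other 4 had groups that overlapped, with differences of -0.67 (SE 0.66) for Muc1, -0.53 (SE 0.57) for Sox9, -0.03 for Krt7 and -0.01 for Krt19. For Muc1 and Sox9, WT replicate 1 lay below both Tg arrays and WT replicate 2 above both. List means of the 5 duct markers were 7.07 and 8.43 in WT and 8.08 and 7.85 in Tg. The part of alpha, delta, PP and duct cells in the Mlph difference was not tested.

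The promoter of Mlph is shown because Mlph was the only member lower in Tg past the adjusted threshold. It is the 250 bases before the RefSeq start, chr1:90914850-90915099 of GRCm38.p6 on the plus strand, read 5′ to 3′, with capitals for the E-box CACGTG.
Mlph: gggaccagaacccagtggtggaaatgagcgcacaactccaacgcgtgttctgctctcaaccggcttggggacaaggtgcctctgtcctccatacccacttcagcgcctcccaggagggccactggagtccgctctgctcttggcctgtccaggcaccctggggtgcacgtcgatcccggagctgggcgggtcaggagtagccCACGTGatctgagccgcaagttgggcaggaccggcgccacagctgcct
The E-box begins 48 bases before the start, reads the same on both strands, and was searched after the sequence had been read. It is present in 6.02% of all promoters of this length. By gene, 6.86% hold it in at least 1 promoter, against 8 of the 36 members with a promoter in the table (22.2%). The 8 include Mlph itself, whose sequence had been read before the search, so the contrast is not a test. Nsf, Napa, Rab27a and Unc13b, which did not pass the test, are also among them. The promoters of the members had a median G and C content of 62.0%, above the 52.4% of all promoters, and the part of base composition in that count was not tested. STAT motifs were present for 3 of the 36 members (Vamp8, Sytl4 and Rph3al; 8.13% of all genes), the full cyclic AMP response element for Stxbp3 alone (1.77% of all genes), and the REST letters for 0 of 36 (0.348%).

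The synaptotagmin-like genes encode other Rab27 effectors. Sytl4, whose product granuphilin docks insulin granules, had 9.63 and 9.57 in WT and 9.56 and 9.60 in Tg (-0.02, SE 0.10, adjusted p = 0.980). Sytl2 had 6.94 and 6.68 in WT and 6.32 and 6.43 in Tg (-0.44, SE 0.13, adjusted p = 0.280). Sytl5 had 10.13 and 9.95 in WT and 9.71 and 9.77 in Tg (-0.30, SE 0.12, adjusted p = 0.402). Sytl2 and Sytl5 were lower on both Tg arrays, as was Mlph, whereas Sytl1 was higher without passing (0.18) and Sytl4 overlapped. Rph3al, the Noc2 gene, whose product binds Rab3 and Rab27 and serves hormone release, was at 0.0099 (SE 0.15).

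Of 92 further genes of the exocytosis pathway, 87 were measured, and the others were not analysed here. Rph3a and Synpr passed the test as higher in Tg and 0 passed as lower, against 0.672% and 0.225% of all genes. By sign alone, 35 of the 87 were higher and 52 lower, where 45.7% and 54.3% of all genes were. Of the 87, 71 lay above the median gene on all arrays, and of all such genes 39.5% were higher. At an unadjusted p under 0.05 there were 10 of the 87 (11.5%), 9 higher and 1 lower, against 6.13% and 5.72% of all genes. With the limit of 1.5-fold added, 5 were higher and 0 lower, against 2.35% and 1.13% of all genes. Rph3a encodes rabphilin-3A, a C2 domain effector of Rab3 and Rab27 on secretory vesicles. It had 5.95 and 6.04 in WT and 8.39 and 8.29 in Tg, a 5.08-fold rise (difference 2.34, SE 0.11, adjusted p = 0.0014). WT arrays lay below the median gene and Tg arrays well above it, as for Syt10. Synpr encodes synaptoporin, a vesicle membrane protein of the synaptophysin family. It had 7.81 and 7.48 in WT and 8.69 and 8.77 in Tg, a 2.125-fold rise (1.09, SE 0.14, adjusted p = 0.041). The Synpr call was lost without WT replicate 2 (adjusted p = 0.093), without Tg replicate 1 (0.215) and without Tg replicate 2 (0.191), while Rph3a passed with any array left out. The plot of values for the changed genes shows their 4 arrays beside both Rab3c probesets.

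**Figure D3:**
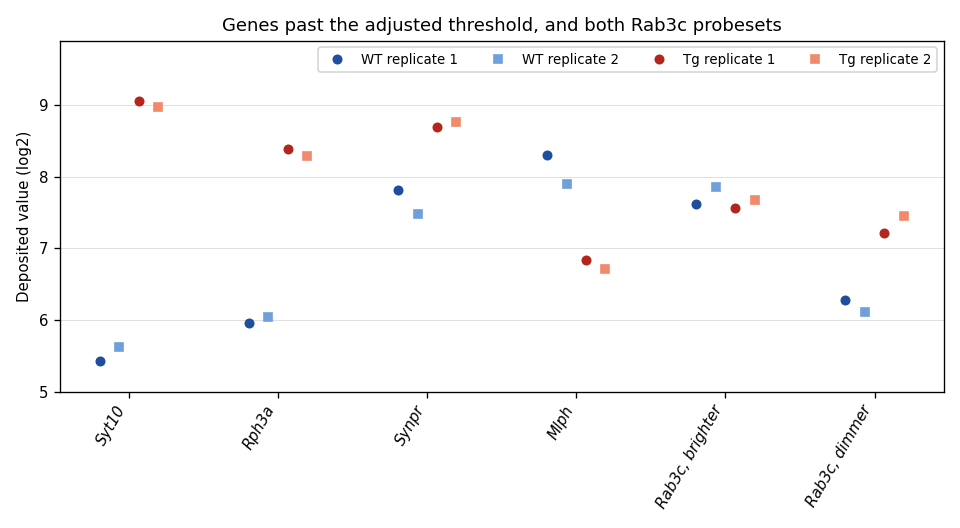
Deposited log2 values (vertical axis) on the 4 arrays for the 4 exocytosis genes past the adjusted threshold and for the 2 probesets of Rab3c, blue for WT and red for Tg. Syt10, Rph3a and Synpr are higher and Mlph lower on both Tg arrays, and the Rab3c probesets part, at -0.11 and 1.15.

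**Figure D4:**
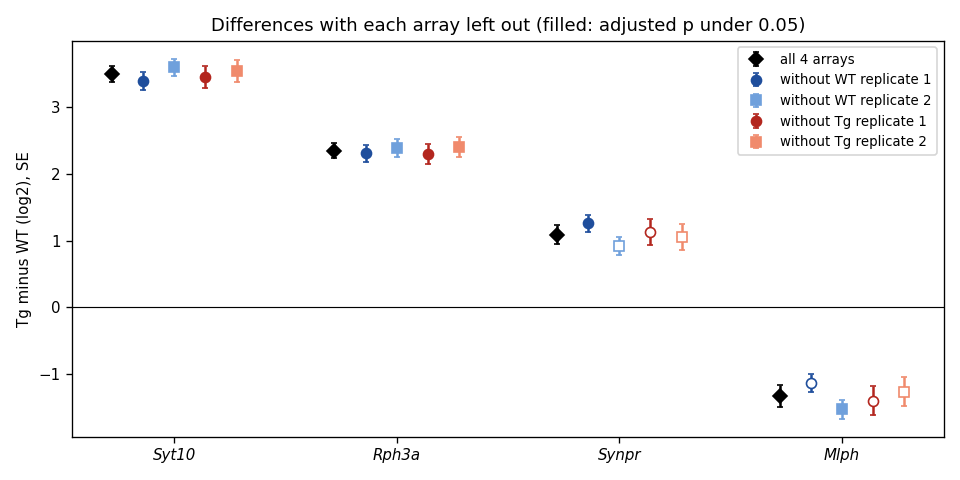
Difference between Tg and WT (log2, vertical axis) with its SE for 4 genes, over all 4 arrays and with each array left out, where filled symbols mark an adjusted p under 0.05. Syt10 (3.39 to 3.59) and Rph3a (2.29 to 2.40) stay filled throughout, while Synpr and Mlph keep their direction and turn open in 3 of the 4 cases each.

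Other genes of the Rab3 and Rab27 system lay in both directions. Sytl3, a further Rab27 effector gene that leukocytes also express, had 5.84 and 5.92 in WT and 6.45 and 6.59 in Tg (0.64, SE 0.11, adjusted p = 0.085). List means of leukocyte, endothelial and mesenchymal markers were higher on the same arrays. Within Tg, Sytl3 was higher on replicate 2, whereas those means were higher on replicate 1 (7.997 against 7.65 for leukocytes). The part of these cells in the Sytl3 difference was not tested. Myo5a, the myosin Va that melanophilin binds, had 9.07 and 8.85 in WT and 9.61 and 9.31 in Tg (0.49, SE 0.15, adjusted p = 0.284), opposite in sign to Mlph, and was chosen after its value was seen. Rab3ip, whose product activates Rab proteins, was lowest in this list, with 9.57 and 9.50 in WT and 9.12 and 9.07 in Tg (-0.44, SE 0.10, adjusted p = 0.173). Cplx3 (-0.30) and the active zone gene Erc2 (-0.25) followed among the lower genes, at adjusted p of 0.431 and 0.452.

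The constitutive parts of the pathway lay close to 0. Of 27 other SNARE genes, most of them of the Golgi and endosomes, 0 had an unadjusted p under 0.05, against 11.8% of all genes. Their differences ran from -0.21 for Stx16 to 0.22 for Vamp7. The 11 genes of the exocyst, a tethering complex, and of its Ral partners ran from -0.14 to 0.02. Tomosyn-2 (Stxbp5l, 0.68) and Baiap3 (0.70), a Munc13 relative that acts in dense-core vesicle traffic, differed by more than 1.5-fold with an adjusted p of 0.157 and 0.2995, and both were chosen after their values were seen. Over the 87 genes the median difference was -0.01, with groups that did not overlap in 32 (36.8%), against 42.3% of all genes.

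The sizes of the differences were mostly small, as they were over all genes. Of the 48 members, 34 differed by less than 0.2, and 2 by at least 1.5-fold (0.58), against 15891 and 833 of the 22180 genes. As shares, both counts of the members lay close to those of all genes, so neither sets the members apart. Between 0.4 and 0.58 there were 6 members, namely Syt1, Syt2, Syt17, Sytl2, Unc13a and Rims3, or 12.5% against 4.55% of all genes, a contrast picked out after the values were seen and not tested.

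**Figure D5:**
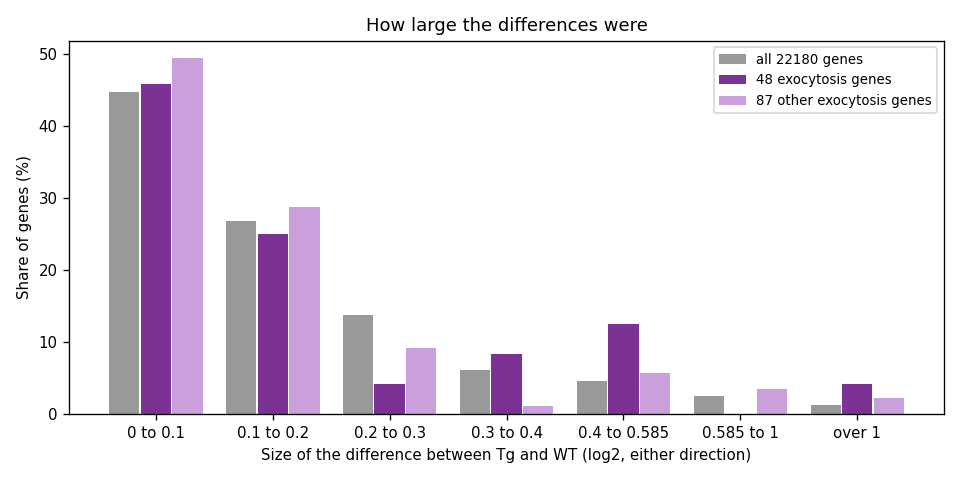
Share of genes (percent, vertical axis) by the size of the difference between Tg and WT in either direction (log2, horizontal axis), for all genes, the 48 exocytosis genes and the 87 other exocytosis genes. Bars of the 48 genes stand at 45.8% under 0.1, 12.5% between 0.4 and 0.58 and 4.17% over 1, where all genes stand at 44.8%, 4.55% and 1.24%.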

How the data were processed

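The deposited table holds log2 intensity values of 27037 probesets on Affymetrix Mouse Gene 2.0 ST arrays, made from 250 ng of total RNA, per the labels. Per the submitters' processing notes, Partek and RMA were used without stated versions; RMA corrects background, normalises arrays by quantiles and summarises probes. No source used here gives the build of the probesets. Of the probesets, 23521 name 1 gene, 1814 several and 1702 none, and only the first were used, 1 per gene. Each group was taken from the titles. Differences came from limma 3.58.1 (lmFit, eBayes; R 4.3.3), with 2 residual and 3.76 prior degrees of freedom and no filter on dim genes, and the steps were tested on simulated data. With 2 arrays a group, an exact permutation test cannot go below a two-sided p of 0.333, so single-gene p-values rest on limma's model, and the number of arrays limits the precision. The members and lists were chosen with earlier results of these data known. Genes were named in full if past the adjusted threshold, or at least 1.5-fold at an unadjusted p under 0.05, or if core to insulin granule release, and otherwise by class. From the other genes of the pathway came those past the threshold and the 3 with the smallest p in each direction. Promoters are those of RefSeq on GRCm38.p6, matched by symbol for 36 of the 48 members, and show only the bases before the start. Alternatives were the mean of probesets, adjustment over all probesets, median centring, a repeated quantile normalisation, a filter that kept genes at or above the median level, a variance trend (also with a robust prior), no moderation, the replicate number as a block, and each array left out.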

Additional observations from a re-analysis of the deposited data

Results flagged for a closer look

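The dimmer probeset of Rab3c, which the comparison of genes does not use, was 1.15 higher in Tg (6.27 and 6.11 in WT, 7.21 and 7.46 in Tg; limma adjusted p = 0.033 over all probesets). It was singled out as a signal in data outside that comparison. Of 5 probesets that name a member and do not stand for it, 1 passed.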

How the results depend on the processing

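All alternatives were planned. Against 2 members (Syt10 and Mlph), 2 other exocytosis genes (Rph3a and Synpr) and 199 genes in all past the adjusted threshold, the replicate block gave 1 (Syt10), 1 (Rph3a) and 24. Without moderation all 3 counts were 0, where 7 members, 8 other exocytosis genes and 1928 genes had an unadjusted p under 0.05 against 11, 10 and 2627 with limma, and Ffar3 kept 4.22 at an adjusted p of 0.472. With a variance trend and robust prior there were 347 genes and the same 2 members. The deviations of same-numbered arrays had a correlation of -0.06 over all genes, so the titles' numbers are not shown to pair arrays. With each array left out, where a lone array is assumed to vary like the others, the counts were 1 to 2 members, 1 to 2 other exocytosis genes and 38 to 135 genes. Members at 1.5-fold with an unadjusted p under 0.05 numbered 2 to 4, those whose groups did not overlap 29 to 38 (a lone array overlaps less by construction), and the median difference of the members ran from -0.10 to -0.010. For the called members, 20 of 26 alternatives left the call in place, 6 ended it and 0 turned the sign. The adjusted p ranged from 0.00013 to 0.452 for Syt10, 0.014 to 0.535 for Mlph, 0.00040 to 0.452 for Rph3a and 0.016 to 0.535 for Synpr, highest without moderation in each case. Of the 46 members not past the test, 0 gained a call and 23 turned sign at least once, each with a difference under 0.15 in size over all 4 arrays before any alternative. The mean of probesets turned Rab3c to 0.52, quantile normalisation once more turned Stx1a to -0.010 and Stxbp5 to 0.012, and centring turned Stx1a to -0.016 and Rph3al to -0.010. With each array left out, values ran from -0.24 to 0.17 for Syt3, -0.00095 to 0.087 for Syt6, -0.20 to 0.068 for Syt14, -0.13 to 0.064 for Snap25, -0.075 to 0.034 for Snap23, -0.067 to 0.076 for Stx1a, -0.30 to 0.0063 for Stx4a, -0.085 to 0.050 for Vamp2, -0.069 to 0.0072 for Vamp3, -0.31 to 0.098 for Stxbp3, -0.12 to 0.12 for Stxbp5, -0.057 to 0.26 for Rims1, -0.027 to 0.080 for Unc13b, -0.10 to 0.20 for Cplx1, -0.015 to 0.23 for Cplx2, -0.11 to 0.21 for Cadps, -0.13 to 0.045 for Cadps2, -0.23 to 0.12 for Rab3a, -0.31 to 0.034 for Rab3b, -0.23 to 0.0025 for Rab3c, -0.55 to 0.62 for Rab27b, -0.047 to 0.014 for Sytl4 and -0.19 to 0.21 for Rph3al. The cause was not tested. Dim members such as Syt6 and Rims1 may give compressed differences.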
